A study of Ovis aries with 15 samples.

Results

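In the liver of fetal sheep (Ovis aries), the change of each gene from gestational day (GD) 124 to GD144 was set against its change from GD100 to GD124. The members are all genes of the count table, followed in all 15 libraries of the series, with 4, 5 and 6 libraries at GD100, GD124 and GD144. Of 31411 genes, 16977 had enough counts to be tested. The labels name the tissue and the gestational stage of each library and no strain, treatment or sex. They do not say whether libraries of 1 stage came from separate fetuses. P-values here describe only how much the sampled libraries vary, which could be technical. The sample codes carry other letters at each stage, and a cohort or batch that follows them cannot be told apart from the stage.

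The fetal liver is at first a site of blood formation. Its hepatocytes take on the secretion of plasma proteins, the output of glucose and the breakdown of fat and amino acids step by step, and in sheep a surge of fetal cortisol before birth is known to drive several of the last steps. A gene that changes in both intervals by the same amount gives a difference of 0 between the changes. A positive difference means that the later change lay above the earlier one, and a negative difference that it lay below.

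Libraries held 24215612 to 38247295 estimated counts, and the floor of detection, set at 3 counts, was 0.0784 to 0.124 CPM (the count scaled to library size). Levels are CPM with scaling by the trimmed mean of M values (TMM), and they can be compared between stages but not between genes, since they are not per length. The hepatocyte markers were high at every stage, with ALB at 15528 to 78710.0 CPM over all libraries and APOB at 552 to 2625 CPM. Levels are given as mean ± SD over the 4, 5 and 6 libraries of the stages in order of age, and log2 changes ± SE. Some libraries stood apart. In GD100 replicates 2 to 4 a group of 84 tested genes lay over 3 times above every other library, and GD144 replicate 3 held more erythroid and cell cycle transcripts than the other GD144 libraries. In 41.6% of the genes called for the difference another gene overlaps in the ARS-UI_Ramb_v3.0 annotation, against 41% of all tested genes. The counting is not stated to use the strand, so values of such genes are uncertain. Among those described here they are ACACB, ACSL1, AFP, AHSG, ALDH6A1, CD34, CHD7, CIDEB, CISH, CPT1A, CSAD, ENG, FBXO42, GADD45A, GC, HSD11B1, IGFBP1, IQANK1, LGR5, MEST, NEK10, ONECUT2, PDK1, PFKP, PLAGL1, PLPP1, SLC16A6, SLC25A20, SLC2A1, SLC37A4, SLC38A4, SREBF2, TCTN1, TP53INP1, UPP2 and XRCC3. In bulk tissue, fewer cells of a type and less RNA per cell cannot be told apart.

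The changes of both intervals differed for 1002 of the 16977 tested genes (5.9%, edgeR quasi-likelihood test, adjusted p under 0.05). For 365 genes (2.15%) the later change lay above the earlier one and for 637 (3.75%) below it. By comparison, 5774 genes (34%) changed from GD100 to GD124 and 4663 (27.5%) from GD124 to GD144. The standard error of the difference had a median of 0.40 on the log2 scale, against 0.24 and 0.22 for the single changes. The GD124 libraries enter both changes, so no likeness between them is read. The plot of one change against the other shows where these genes lie. The split depended on scaling. With total counts alone 789 genes were above and 388 below, and the median difference of all genes moved from -0.04 to 0.22, so differences near that size are not read as a direction. Without GD100 replicates 2 to 4 there were 848 calls, 406 of them among the 1002. The total also rested on single libraries, at 628, 515 and 1743 genes without GD100 replicate 2, 3 or 4, and at 501, 379, 629 and 482 without GD124 replicate 1, 2, 3 or 4.

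**Figure D1:**
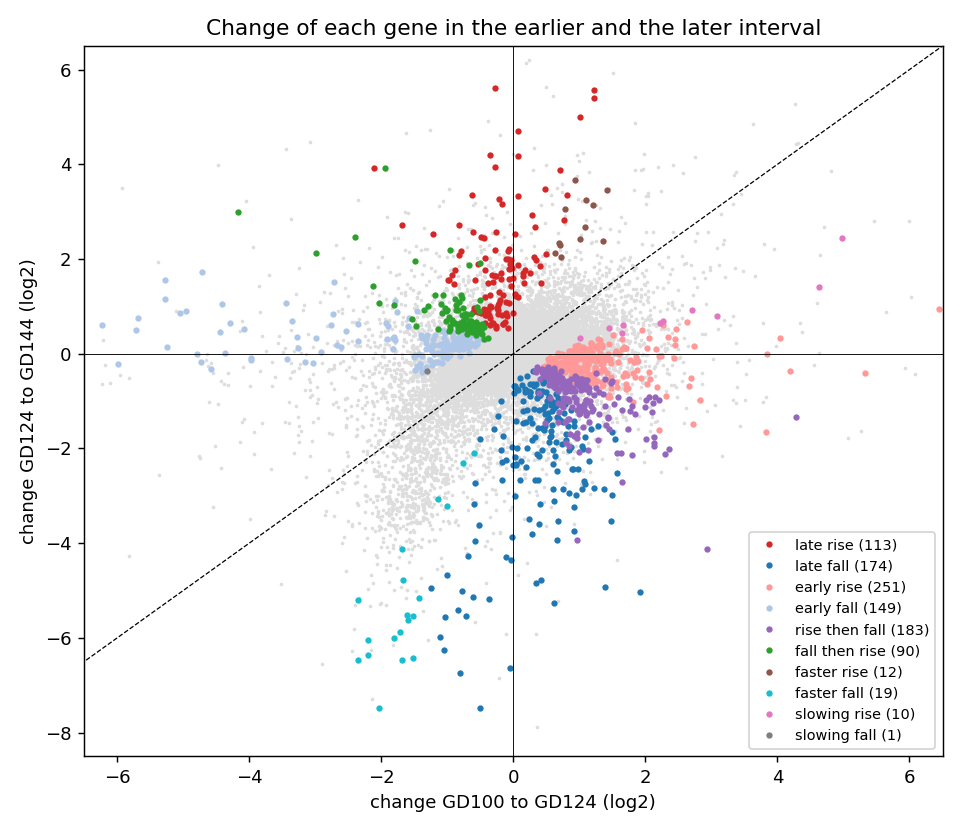
Change of each tested gene from GD100 to GD124 (horizontal axis, log2) and from GD124 to GD144 (vertical axis, log2), with genes called for the difference coloured by course, other genes in grey and the dashed line marking equal changes. The 251 early rises lie along the right side of the horizontal axis, the 113 late rises along the upper part of the vertical axis, and the 183 genes that rose and then fell between them and the 174 late falls. The 8 genes beyond the axes are not drawn, and both axes share the GD124 libraries.

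Genes called for the difference were placed in courses by the calls of the single intervals. An early rise (251 genes, 1.48% of those tested) was the most frequent course in this fit, a change called from GD100 to GD124 with no later change called. There were 149 early falls (0.878%). A call in the later interval alone was made for 113 rises (0.666%) and 174 falls (1.02%). Reversals comprised 183 genes that rose and then fell (1.08%) and 90 that fell and then rose (0.53%). Changes in 1 direction that became larger comprised 12 rises (0.0707%) and 19 falls (0.112%), and those that became smaller 10 rises (0.0589%) and 1 fall (0.00589%). Missing a threshold does not show that a level stood still, so a stricter count asked that the 95% interval of the change not called lay within 2-fold either way. It held for 202 early rises, 108 early falls, 80 late rises and 69 late falls. The naming rule used below took, per course, genes whose libraries did not overlap in a called interval. For early and late courses it also asked for this stricter interval. In genes it named by course, such separation and such intervals are conditions of the choice and add no support.

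**Figure D2:**
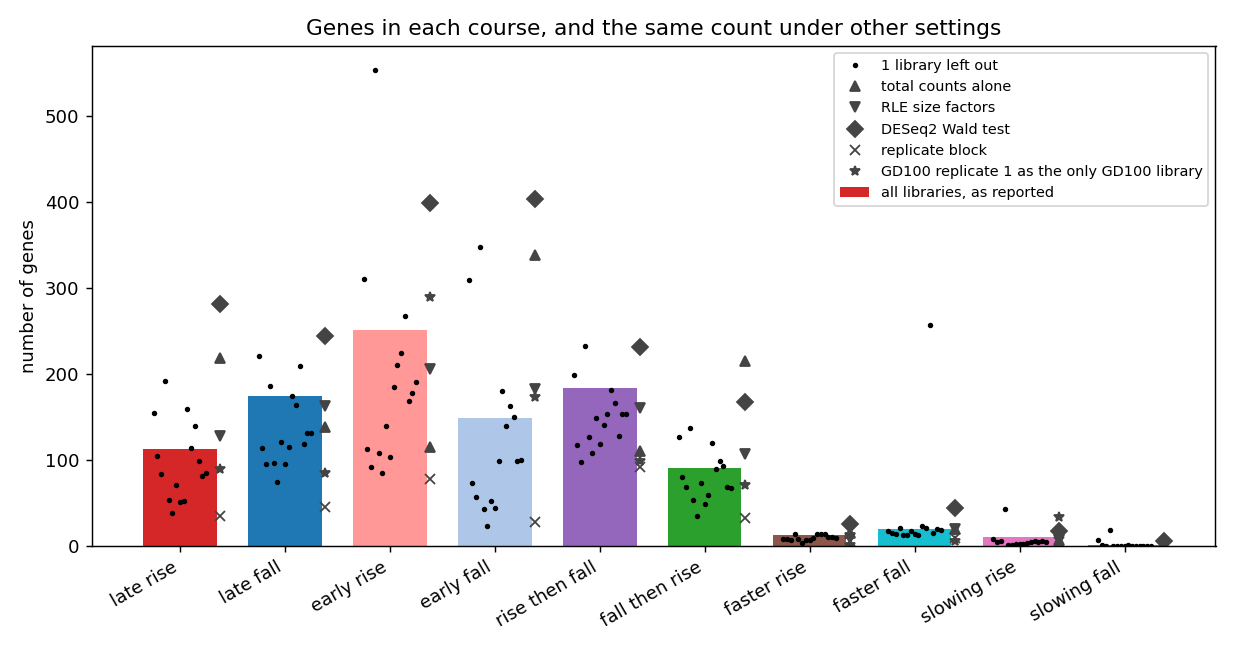
Number of genes in each course (bars, fit of all 15 libraries) and the same number with 1 library left out (dots) or under another scaling, test or set of libraries (other symbols). The early rise bar stands at 251 genes and its dots run from 85 to 554, while faster fall has a bar at 19 and 1 dot at 257, the fit without GD144 replicate 3.

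Genes that respond to glucocorticoid or thyroid hormone took part in the late rises. Of 21 tested members, 4 had a later change above the earlier one and 0 below it, against 2.15 and 3.75% of all tested genes. The median change of the list was 0.78 and 1.38 on the log2 scale in the earlier and the later interval, against 0.02 and -0.01 for all genes. ZBTB16 (a zinc finger transcription factor) had the largest difference of all late rises chosen by the naming rule. ZBTB16 stood at 5.27, 4.19, 2.55 and 2.58 CPM at GD100, at 3.95, 2.2, 5.27, 4.47 and 3.29 CPM at GD124, and at 47 to 98.4 CPM with a median of 67 CPM at GD144. The libraries of GD100 and GD124 overlapped and all GD144 libraries lay above them, and the changes were log2 0.07 ± 0.28 in the earlier and 4.17 ± 0.28 in the later interval, a difference of 4.10 ± 0.49 (SE, edgeR adjusted p = 5.00e-04). PER1, a repressor of the circadian clock, had the same course. PER1 stood at 11.4, 9.57, 11.7 and 12.2 CPM at GD100, at 13.8, 13, 10.7, 12.1 and 19.9 CPM at GD124, and at 49.9 to 62.6 CPM with a median of 58.4 CPM at GD144. No GD144 library fell below 49.9 CPM, and the difference was 1.73 ± 0.27 (edgeR adjusted p = 0.0034). GADD45B, a stress-response gene, went from 11.7 ± 4.11 to 83 ± 32.3 CPM, with a difference of 2.05 ± 0.54 (adjusted p = 0.0365). KLF9, a transcription factor induced by both hormones, rose in both intervals and faster in the later one, at 4.85 ± 2.57, 11.3 ± 3.61 and 100.0 ± 17.3 CPM (difference 1.94 ± 0.50, adjusted p = 0.0327). NR3C1, the glucocorticoid receptor, changed by 0.57 ± 0.13 and 0.50 ± 0.12, and the 95% interval of its difference was -0.53 to 0.39. HSD11B1, which regenerates active glucocorticoid, was at 39.4 ± 25.7, 89.7 ± 29.5 and 539 ± 140.4 CPM, and its difference of 1.40 ± 0.63 did not pass (adjusted p = 0.193). Leaving out 1 library ended the calls of GADD45B (GD100 replicates 2 and 3, GD124 replicates 2 to 5 and GD144 replicate 5, adjusted p 0.055 to 0.101) and KLF9 (GD124 replicates 2, 3 and 5, adjusted p 0.071 to 0.09). Without GD100 replicates 2 to 4, GADD45B (adjusted p = 0.117) missed the threshold.

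Further late rises chosen by the naming rule included USP2 and AQP7. AQP7 encodes a channel for glycerol. AQP7 stood at 5.69, 2.86, 6.26 and 8.57 CPM at GD100, at 7.52, 3.89, 7.82, 6.17 and 5.16 CPM at GD124, and at 35.6 to 75.7 CPM with a median of 68 CPM at GD144. Its levels at GD100 and GD124 overlapped, the 95% interval of its earlier change was -0.54 to 0.68, and the later change was 3.33 ± 0.28 (difference 3.26 ± 0.50, adjusted p = 0.00388). USP2, a deubiquitinating enzyme, averaged 1.89 ± 0.779, 1.67 ± 0.502 and 15.1 ± 6.56 CPM at the 3 stages (difference 3.34 ± 0.60, adjusted p = 0.00761). With any 1 library left out the calls of both genes held.

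Several genes of fat breakdown rose by their calls in the later interval alone. Of 33 tested genes of fatty acid oxidation 4 had a larger later change and 0 a smaller one, against 2.15 and 3.75% of all tested genes. ACSL1, which activates fatty acids, was at 63.2 ± 24.3, 76.9 ± 10.7 and 590.3 ± 315 CPM (difference 2.66 ± 0.64, adjusted p = 0.0244). CPT1A, which admits fatty acids to mitochondria, showed 51, 38.2, 41.1 and 43.2 CPM at GD100, 41.3, 41.9, 59.7, 46.8 and 49.4 CPM at GD124 and 107 to 285 CPM with a median of 140.2 CPM at GD144, so that the first stages overlapped and the last lay above both (difference 1.57 ± 0.40, adjusted p = 0.0315). ACADVL, the first enzyme of oxidation of very long chains, was at 67.5 ± 4.06, 65.7 ± 11.1 and 177 ± 56.6 CPM (difference 1.47 ± 0.38, adjusted p = 0.0325). SLC25A20, the carnitine carrier of the inner membrane, fell and then rose, at 39.7 ± 4.24, 23.5 ± 2.2 and 46 ± 18.8 CPM (difference 1.73 ± 0.45, adjusted p = 0.0358). In the earlier interval 16 of the 33 rose and 2 fell, in the later one 23 rose and 0 fell, and the medians were 0.62 and 0.73. Of all tested genes 16.6% rose and 17.4% fell in the earlier and 12.1% rose and 15.4% fell in the later interval. Among the ketone body genes 1 of 7 passed (14.3%, against 5.9% of all tested genes), SLC16A6, a member of the monocarboxylate transporter family. SLC16A6 stood at 26.9, 14.3, 17.7 and 12.5 CPM at GD100, at 18, 36.7, 25.7, 14.2 and 29.8 CPM at GD124, and at 182 to 395 CPM with a median of 247 CPM at GD144. Its difference was 3.01 ± 0.54 (adjusted p = 0.00761). The calls of ACSL1 (GD124 replicates 1 to 5, adjusted p 0.0508 to 0.0632), CPT1A (GD124 replicates 1, 2, 4 and 5, adjusted p 0.0576 to 0.0878), ACADVL (GD100 replicate 3 and GD124 replicates 1, 2, 3 and 5, adjusted p 0.0512 to 0.0896) and SLC25A20 (GD100 replicates 2 and 3, GD124 replicates 1 to 5 and GD144 replicate 6, adjusted p 0.0506 to 0.0804) ended with 1 of these libraries left out. Leaving out GD100 replicates 2 to 4 together ended the calls of CPT1A (adjusted p = 0.0588), ACADVL (adjusted p = 0.0803) and SLC25A20 (adjusted p = 0.103).

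Of 49 genes of the urea cycle and amino acid breakdown 3 had a larger and 2 a smaller later change, against 2.15 and 3.75% of all tested genes, so the smaller ones were near the share of all genes. PRODH, which opens proline breakdown, was at 2.68, 2.79, 2.95 and 1.6 CPM at GD100, 1.96, 1.44, 1.18, 2.74 and 0.726 CPM at GD124 and 9 to 35 CPM with a median of 13.1 CPM at GD144, with all GD144 libraries above the rest (difference 3.98 ± 0.72, adjusted p = 0.00794). GNMT, which uses up methyl groups by methylating glycine, was at 5.76 ± 1.65, 9.42 ± 1.51 and 139.7 ± 102 CPM (difference 3.17 ± 0.84, adjusted p = 0.0398). NAGS makes the activator of the first urea cycle enzyme and was at 18.3 ± 1.85, 24.3 ± 5.83 and 68.4 ± 11.6 CPM (difference 1.08 ± 0.30, adjusted p = 0.0426). CPS1, that first enzyme, rose in both intervals at 1.78 ± 0.31 and 0.79 ± 0.27, and the difference of -0.99 ± 0.47 did not pass (adjusted p = 0.217). TAT, of tyrosine breakdown, rose earlier by 1.47 ± 0.23 with a difference of -1.07 ± 0.36 (adjusted p = 0.093), which passed without GD100 replicate 4 (-1.25, adjusted p = 0.027). AMDHD1 of histidine breakdown had an early rise (-1.26 ± 0.33, adjusted p = 0.0342). CSAD, a taurine-forming enzyme, was a late fall by its calls (-1.33 ± 0.23 later, adjusted p of the difference 0.0112). Its earlier rise of 0.66 ± 0.25 just missed the call (edgeR adjusted p = 0.0523). Of 27 genes of fatty acid and triglyceride synthesis 3 had a larger and 1 a smaller later change, beside the same 2.15 and 3.75%. ACACB, AGPAT2 and PLIN5 were late rises by 1.20 ± 0.24, 0.86 ± 0.18 and 0.65 ± 0.14, and CIDEB was an early rise of 1.05 ± 0.25. Fits without 1 library ended the calls of GNMT (GD100 replicates 2 and 3, GD124 replicates 1 to 5 and GD144 replicate 6, adjusted p 0.0586 to 0.0967), NAGS (GD100 replicates 1 and 3, GD124 replicates 1, 2, 4 and 5 and GD144 replicates 5 and 6, adjusted p 0.0509 to 0.115), AMDHD1 (GD100 replicates 2 and 3, GD124 replicates 2 to 5 and GD144 replicates 1 and 5, adjusted p 0.052 to 0.107), ACACB (GD100 replicates 2 and 3, GD124 replicates 1 to 4 and GD144 replicates 2 and 5, adjusted p 0.0512 to 0.108), AGPAT2 (GD100 replicates 1 and 3, GD124 replicates 2 to 5 and GD144 replicates 5 and 6, adjusted p 0.0502 to 0.096), PLIN5 (GD100 replicate 3, GD124 replicates 1 to 5 and GD144 replicate 5, adjusted p 0.0506 to 0.09) and CIDEB (GD100 replicates 2 and 3, GD124 replicates 1 to 5 and GD144 replicates 1, 4, 5 and 6, adjusted p 0.0662 to 0.13). No call was left without GD100 replicates 2 to 4 for GNMT (adjusted p = 0.152), NAGS (adjusted p = 0.0927), AMDHD1 (adjusted p = 0.0631), CSAD (adjusted p = 0.0557) and CIDEB (adjusted p = 0.0691). The call also ended with scaling by total counts alone for CIDEB (adjusted p = 0.0533), and with no filter on low counts for GNMT (adjusted p = 0.0627) and CIDEB (adjusted p = 0.0548).

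**Figure D3:**
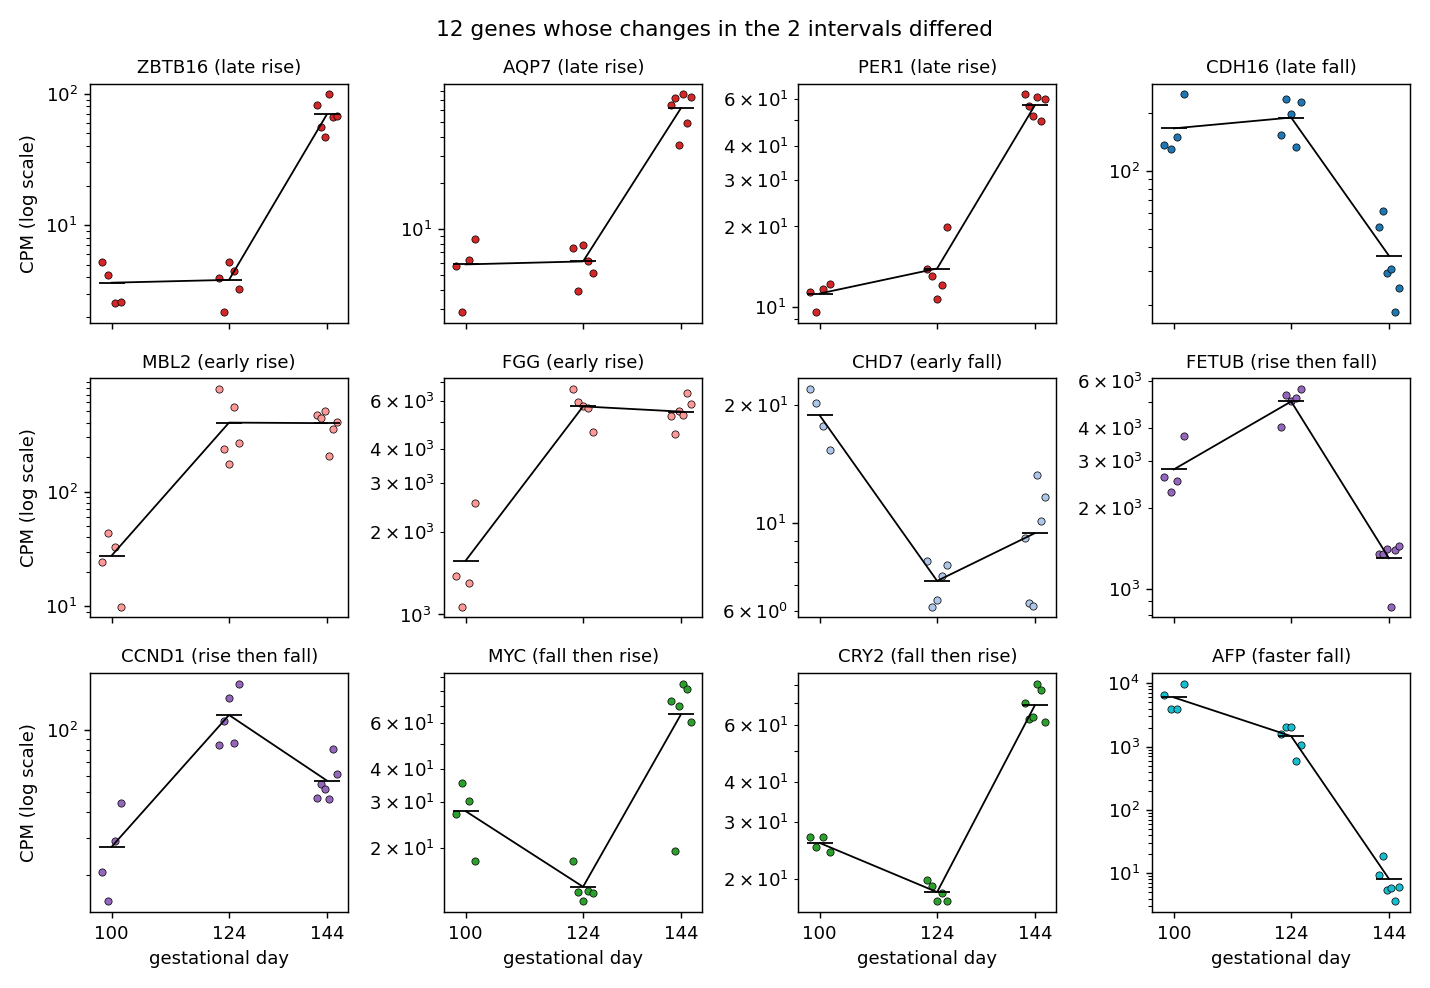
CPM of 12 genes in each library (points, log axis that differs between panels) by gestational day, with stage means as bars joined by lines. ZBTB16, AQP7 and PER1 overlap between GD100 and GD124 and lie higher in every GD144 library, FGG reaches its GD144 range by GD124, FETUB is highest at GD124, and CRY2 is lowest there.

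Many secreted plasma proteins rose before GD124 and had no rise called after it. Of 48 tested members 0 had a larger and 10 a smaller later change, against 2.15 and 3.75% of all tested genes, and 8 of the 10 were early rises while 2 rose and then fell. In the earlier interval 33 members rose and 0 fell, and in the later one 7 rose and 2 fell, with medians of 1.01 and 0.10. The shares of all tested genes were 16.6% rising and 17.4% falling earlier and 12.1% rising and 15.4% falling later, so the later rises were near the share of all genes. FGG, a chain of fibrinogen, the clot protein, is an example. FGG stood at 1381, 1069, 1297 and 2538 CPM at GD100, at 6598, 5956, 5755, 5660.1 and 4625 CPM at GD124, and at 4554 to 6379 CPM with a median of 5396 CPM at GD144. All GD124 and GD144 libraries lay above all GD100 libraries and overlapped with each other, and the 95% interval of the later change was -0.51 to 0.38 (difference -1.93 ± 0.38, adjusted p = 0.00999). The other fibrinogen chains, FGB and FGA, had differences of -1.75 ± 0.40 and -1.59 ± 0.40. Histidine-rich glycoprotein (HRG) was at 303 ± 209.5, 1398 ± 189 and 1361 ± 352 CPM (difference -2.24 ± 0.53, adjusted p = 0.0231), and AHSG (fetuin-A) at 38958 ± 20817, 98389 ± 9667 and 65374 ± 10089 CPM (difference -1.93 ± 0.48, adjusted p = 0.0299). GC (vitamin D binding protein), KNG1 (kininogen) and ITIH2, an inter-alpha-trypsin inhibitor chain, were early rises as well, with differences of -1.70 ± 0.44, -1.68 ± 0.36 and -1.53 ± 0.39. Their later changes were -0.39 ± 0.25, -0.20 ± 0.20 and -0.59 ± 0.22, and the later fall of ITIH2 just missed the call (edgeR adjusted p = 0.0556). ALB itself rose early (1.34 ± 0.34) with a later change of -0.09 ± 0.29, but its difference of -1.43 ± 0.52 did not pass (adjusted p = 0.113). It did pass without GD100 replicate 4 (-1.86, adjusted p = 0.00548), without GD100 replicates 2 to 4 (adjusted p = 0.0339) and with DESeq2 (adjusted p = 0.0274). The summed level of the list was 79550.0 to 238430.0 CPM at GD100, lowest in replicates 2 and 3 (79550.0 and 99053 CPM) and highest in replicate 4, then 296030.0 to 339190.0 CPM at GD124 and 250260.0 to 300240.0 CPM at GD144. Summed erythroid transcripts ran the other way at GD100, at 20481 and 16348 CPM in replicates 2 and 3, 10023 CPM in replicate 1 and 8333 CPM in replicate 4, and their part in the result was not tested. Each library named here, when left out, ended the calls of FGB (GD100 replicate 3 and GD124 replicates 1, 2 and 4, adjusted p 0.0515 to 0.0632), FGA (GD100 replicates 2 and 3 and GD124 replicates 1 to 4, adjusted p 0.0512 to 0.0771), HRG (GD100 replicate 3 and GD124 replicates 1 and 4, adjusted p 0.0519 to 0.0602), AHSG (GD100 replicate 3, GD124 replicates 1 to 5 and GD144 replicate 4, adjusted p 0.0519 to 0.081), GC (GD100 replicates 2 and 3, GD124 replicates 1 to 5 and GD144 replicates 4 and 5, adjusted p 0.0518 to 0.0808) and ITIH2 (GD100 replicates 2 and 3, GD124 replicates 1 to 5 and GD144 replicates 4 and 5, adjusted p 0.0504 to 0.0784).

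Complement and acute phase genes had 2 members of 30 with a smaller and 0 with a larger later change, against 3.75 and 2.15% of all tested genes. MBL2, a lectin that starts complement activation, had the largest difference among the early rises of the naming rule. MBL2 stood at 24.3, 43.6, 33.1 and 9.98 CPM at GD100, at 779, 237, 175, 543 and 265 CPM at GD124, and at 206 to 500.3 CPM with a median of 423 CPM at GD144. Every later library lay above every GD100 library, and the changes were log2 3.85 ± 0.52 in the earlier and -0.02 ± 0.40 in the later interval, a difference of -3.86 ± 0.71 (SE, edgeR adjusted p = 0.00887). C6, of the terminal complement complex, kept rising more slowly, at 3.78 ± 3.07, 92.6 ± 40.5 and 247 ± 136 CPM (difference -3.21 ± 0.83, adjusted p = 0.0363). UPP2 and PDK1 were the further early rises of the naming rule. UPP2, a uridine phosphorylase, was at 10.6 ± 5.12, 57.6 ± 4.24 and 65 ± 10.1 CPM (difference -2.27 ± 0.36, adjusted p = 0.00409), and PDK1, a kinase that restrains pyruvate dehydrogenase, at 13.8 ± 5.4, 48.8 ± 11.8 and 37 ± 11.7 CPM (difference -2.22 ± 0.45, adjusted p = 0.0125). GYS2, liver glycogen synthase, was the 1 called member of the 17 glycogen genes (5.88%, against 5.9% of all tested genes). It was at 41.8 ± 24.5, 229 ± 33.6 and 283 ± 75.7 CPM (difference -2.14 ± 0.47, adjusted p = 0.0171). Of 21 genes of the growth hormone and insulin-like growth factor axis 9.52% were called, against 5.9% of all tested genes. IGFBP1, a growth factor binding protein, was an early rise at 17.3 ± 16.4, 285 ± 111 and 357 ± 199.8 CPM (difference -3.72 ± 0.93, adjusted p = 0.0323). CISH, an inhibitor of growth hormone signalling, was an early fall (difference 1.48 ± 0.38, adjusted p = 0.0314). IGF1, IGF2 and GHR had differences of -0.74 ± 0.38, -0.41 ± 0.40 and -0.70 ± 0.31 that did not pass. That of GHR did without GD100 replicates 2 to 4 (-1.19, adjusted p = 0.0215) and without replicate 4 alone (-0.95, adjusted p = 0.0143). Leaving out 1 library ended the calls of C6 (GD100 replicates 2 and 3, GD124 replicates 1 to 5 and GD144 replicates 1, 4 and 6, adjusted p 0.0501 to 0.119), GYS2 (GD124 replicate 4, adjusted p 0.0506), IGFBP1 (GD100 replicates 2 and 3, GD124 replicates 1, 3, 4 and 5 and GD144 replicate 4, adjusted p 0.0504 to 0.0771) and CISH (GD124 replicates 1, 2, 3 and 5, adjusted p 0.0556 to 0.0847). Another processing ended the call, namely with no filter on low counts for C6 (adjusted p = 0.0652) and IGFBP1 (adjusted p = 0.0582).

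Of 28 transcription factors of hepatocytes 1 was called for a larger and 3 for a smaller later change, against 2.15 and 3.75% of all tested genes. FOXA2, a factor that opens chromatin in early liver, was a late fall. FOXA2 stood at 17, 10.1, 12.6 and 21 CPM at GD100, at 17.3, 19.6, 14.8, 14.4 and 16 CPM at GD124, and at 1.99 to 6.25 CPM with a median of 3.14 CPM at GD144. The GD100 and GD124 libraries overlapped, every GD144 library lay lower, and the difference was -2.39 ± 0.44 (adjusted p = 0.00857). NR1H4, the bile acid receptor, was an early rise (38.5 ± 6.24, 68.2 ± 7.81 and 58.4 ± 3.99 CPM, difference -1.05 ± 0.20, adjusted p = 0.00993). ONECUT2 was another (-2.02 ± 0.57, adjusted p = 0.049), and NR2F1 fell and then rose (1.31 ± 0.32, adjusted p = 0.0273). The calls of ONECUT2 (GD100 replicates 2 to 4, GD124 replicates 1 to 5 and GD144 replicates 1 to 6, adjusted p 0.0533 to 0.0963) and NR2F1 (GD124 replicates 1, 3 and 5, adjusted p 0.0583 to 0.0676) ended with 1 of these libraries left out. GD100 replicate 1 taken alone for its stage left no call for FOXA2 (adjusted p = 0.0505), NR1H4 (adjusted p = 0.0513) and ONECUT2 (adjusted p = 0.0998). Changed processing ended it with scaling by total counts alone for ONECUT2 (adjusted p = 0.0613), and with RLE scaling for ONECUT2 (adjusted p = 0.052), and with no filter on low counts for ONECUT2 (adjusted p = 0.0663).

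Several transcripts of the fetal liver fell late or fell faster. In the list of fetal liver and growth genes 5 of 19 had a smaller and 1 a larger later change, against 3.75 and 2.15% of all tested genes. AFP, the albumin-like plasma protein of the fetus, fell in both intervals. AFP stood at 6525, 3893, 3882 and 9699.7 CPM at GD100, at 1566, 2044, 2057, 595 and 1076 CPM at GD124, and at 3.6 to 18.7 CPM with a median of 6.05 CPM at GD144. No library of 1 stage overlapped another stage, and the changes were log2 -2.03 ± 0.46 in the earlier and -7.49 ± 0.53 in the later interval, a difference of -5.46 ± 0.74 (SE, edgeR adjusted p = 0.00132). PLAGL1, an imprinted regulator of growth, followed the same course at 387 ± 109, 120.4 ± 23.7 and 6.87 ± 1.25 CPM (difference -2.44 ± 0.31, adjusted p = 8.68e-04). The imprinted genes MEST and PEG3 were late falls. MEST stood at 347, 210.5, 216 and 409 CPM at GD100, at 484, 576, 325, 390.4 and 379 CPM at GD124, and at 78.5 to 157 CPM with a median of 125 CPM at GD144. GD100 and GD124 overlapped for MEST, GD144 lay lower, and the difference was -2.40 ± 0.41 (adjusted p = 0.00554). PEG3 was at 2946 ± 854, 4630.4 ± 147 and 1275 ± 723 CPM (difference -2.51 ± 0.57, adjusted p = 0.0187). SLC38A4, an amino acid transporter gene imprinted in some mammals, had an early rise (difference -1.99 ± 0.39), and GRB10, an adaptor that restrains growth signals, fell and then rose (difference 1.46 ± 0.26). Without GD100 replicates 2 to 4, PEG3 (adjusted p = 0.128) missed the threshold.

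CDH16, ATP9A and PRAP1 completed the late falls of the naming rule. CDH16, a cadherin known from kidney, was at 137, 129, 149 and 249 CPM at GD100, 153, 235, 196, 133 and 227 CPM at GD124 and 18.5 to 62 CPM with a median of 30.1 CPM at GD144. Its first stages overlapped and the last lay below both (difference -2.58 ± 0.51, adjusted p = 0.0106). ATP9A, a membrane ATPase of the flippase family, was at 35.9 ± 12.1, 46.3 ± 8.53 and 10.7 ± 4.42 CPM (difference -2.47 ± 0.47, adjusted p = 0.00956). PRAP1, a secreted protein rich in proline, was at 24 ± 10.8, 21.3 ± 9.31 and 3.36 ± 1.37 CPM (difference -2.49 ± 0.62, adjusted p = 0.0303). Fits without 1 library ended the call of PRAP1 (GD100 replicates 2 and 3 and GD124 replicates 1, 2 and 5, adjusted p 0.0605 to 0.0822). Leaving out GD100 replicates 2 to 4 together ended the calls of CDH16 (adjusted p = 0.0557), ATP9A (adjusted p = 0.0928) and PRAP1 (adjusted p = 0.233).

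Among falls that became faster, OSM stood beside AFP and PLAGL1. OSM encodes oncostatin M, a cytokine of blood cells that acts on hepatocytes. OSM stood at 41.7, 95.4, 48.4 and 17.4 CPM at GD100, at 13, 9.94, 10.2, 10.6 and 11.1 CPM at GD124, and at 0.0321 to 0.277 CPM with a median of 0.0852 CPM at GD144. GD144 held 25 counts of OSM over its 6 libraries, 1 to 9 a library, and the fitted difference was -4.15 ± 0.69 (adjusted p = 0.00579). GD144 replicates 1, 4 and 5 held 1, 2 and 2 counts of OSM, under the floor of 3 counts. The GD144 median lay within the floor range of 0.0784 to 0.124 CPM, so the size of the later fall of OSM is uncertain. KCNN4, a potassium channel of red blood cells, was at 8.4, 13.7, 16.4 and 6.46 CPM at GD100, at 1.71, 2.92, 1.11, 2.12 and 3.12 CPM at GD124, and at 0 in 3 of the 6 GD144 libraries. All 6 held 0 to 2 counts of KCNN4, under the floor of 3 counts, so the size of its later fall cannot be given (edgeR adjusted p of the difference 0.00863).

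Part of the early falls were genes that stood out in GD100 replicates 2 to 4. Of the 149 genes 29 belonged to the 84 of 16977 tested genes that these libraries set apart. In each other course 0 genes did. Such genes are high at GD100 by definition, so their place among falls from GD100 was largely fixed in advance. The naming rule left those genes out and gave IQANK1, ADGRG1, CHD7 and ANKRD9. CHD7, a chromatin remodelling enzyme, was at 21.9, 20.2, 17.7 and 15.4 CPM at GD100, 8.03, 6.16, 6.38, 7.34 and 7.85 CPM at GD124 and 6.16 to 13.2 CPM with a median of 9.68 CPM at GD144. All GD100 libraries lay above all others, and the difference was 1.79 ± 0.36 (adjusted p = 0.0113). IQANK1 was at 10.9 ± 3.39, 3.1 ± 0.619 and 3.94 ± 0.946 CPM (difference 2.16 ± 0.44, adjusted p = 0.0116), ADGRG1, an adhesion receptor, at 13.6 ± 4.14, 3.86 ± 0.683 and 4.12 ± 1.84 CPM (1.91 ± 0.51, adjusted p = 0.0379), and ANKRD9 at 23.3 ± 10.4, 8.96 ± 1.45 and 11.3 ± 3.1 CPM (1.72 ± 0.47, adjusted p = 0.0405). Each library named here, when left out, ended the calls of ADGRG1 (GD100 replicates 2 and 3, GD124 replicates 1 to 5 and GD144 replicate 5, adjusted p 0.0567 to 0.111) and ANKRD9 (GD100 replicates 2 and 3, GD124 replicates 1 to 5 and GD144 replicates 4 to 6, adjusted p 0.052 to 0.097). No call was left without GD100 replicates 2 to 4 for IQANK1 (adjusted p = 0.0931), ADGRG1 (adjusted p = 0.118) and ANKRD9 (adjusted p = 0.287).

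Reversals that peaked at GD124 comprised genes of several functions. PPM1K encodes the phosphatase that activates branched-chain amino acid breakdown. PPM1K stood at 25.3, 25.3, 34.6 and 35.7 CPM at GD100, at 122, 117, 94.7, 178 and 137 CPM at GD124, and at 26.8 to 77.4 CPM with a median of 57.3 CPM at GD144. GD124 lay above both other stages with no overlap, as the naming rule asks. The changes were log2 2.10 ± 0.26 in the earlier and -1.24 ± 0.22 in the later interval, a difference of -3.34 ± 0.39 (SE, edgeR adjusted p = 4.69e-04). CCND1, cyclin D1 of the entry into the cell cycle, was at 20.8, 14.9, 29.2 and 44.5 CPM at GD100, 84.7, 110.4, 142, 86.5 and 166 CPM at GD124 and 46.3 to 80.9 CPM with a median of 53.5 CPM at GD144 (difference -3.16 ± 0.45, adjusted p = 0.00187). Its GD124 libraries again lay above all others. MLIP, first described in muscle, was at 3.21 ± 0.799, 10.7 ± 2.84 and 3.55 ± 1.04 CPM (difference -3.32 ± 0.42, adjusted p = 8.58e-04), and PLPP1, a lipid phosphatase, at 46.2 ± 23.1, 145 ± 21.1 and 63.4 ± 3.28 CPM (difference -2.84 ± 0.37, adjusted p = 0.00102). The plasma proteins FETUB (fetuin-B) and TTR (transthyretin, a carrier of thyroid hormone and retinol) shared this course. FETUB stood at 2616, 2298, 2538 and 3718 CPM at GD100, at 4036, 5280.2, 5012, 5169 and 5563 CPM at GD124, and at 858 to 1446 CPM with a median of 1373 CPM at GD144. Its GD144 libraries lay below those of GD100 too, and the difference was -2.79 ± 0.32 (adjusted p = 4.65e-04). TTR was at 1719.8 ± 748, 3701 ± 647 and 1501 ± 568 CPM (difference -2.41 ± 0.50, adjusted p = 0.0135). SEL1L, of the disposal of misfolded proteins, was at 76.5 ± 27.2, 162 ± 14.8 and 111 ± 11.6 CPM (difference -1.63 ± 0.31, adjusted p = 0.00883). SLC40A1, the iron exporter ferroportin, was at 271 ± 80.7, 475 ± 44.3 and 299 ± 40.8 CPM (difference -1.47 ± 0.29, adjusted p = 0.00984). It was the 1 called member of 24 Kupffer cell and macrophage genes (4.17%, against 5.9% of all tested genes). GD100 replicate 1 taken alone for its stage left no call for TTR (adjusted p = 0.0505).

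Reversals with a low at GD124 included a second clock repressor, CRY2. CRY2 stood at 27, 25.2, 27 and 24.2 CPM at GD100, at 19.8, 18.9, 17.1, 18.1 and 17 CPM at GD124, and at 61.3 to 80.3 CPM with a median of 66.8 CPM at GD144. The stages did not overlap and the standard error was the smallest of the genes of this course named here, with changes of log2 -0.51 ± 0.11 in the earlier and 1.93 ± 0.10 in the later interval, a difference of 2.43 ± 0.19 (SE, edgeR adjusted p = 1.01e-05). Of 19 clock genes PER1 and CRY2 had larger later changes and 1 a smaller one, against 2.15 and 3.75% of all tested genes. The clock list as a whole did not share this course, with medians of 0.61 earlier and 0.22 later and a median difference of -0.42. At an unadjusted edgeR p under 0.05 its members were 2 larger and 3 smaller, and DESeq2 called 2 and 3. MYC, a transcription factor of growth, had the largest difference of the course under the naming rule. MYC stood at 27, 35.6, 30.3 and 17.8 CPM at GD100, at 17.8, 13.6, 12.5, 13.7 and 13.5 CPM at GD124, and at 19.5 to 84.7 CPM with a median of 71.5 CPM at GD144. The lowest GD144 library, replicate 2, lay within the GD100 range of MYC, and all GD144 libraries lay above GD124 (difference 3.15 ± 0.55, adjusted p = 0.0067). PCK2, the mitochondrial enzyme of gluconeogenesis, was at 104, 112, 109.7 and 115 CPM at GD100, 78, 71.6, 70.3, 68.7 and 58.2 CPM at GD124 and 119 to 357 CPM with a median of 266 CPM at GD144, without overlap (difference 2.53 ± 0.41, adjusted p = 0.0044). XRCC3, of DNA repair by recombination, was at 15.1 ± 2.07, 6.64 ± 1.06 and 15.7 ± 2.14 CPM (difference 2.43 ± 0.27, adjusted p = 3.58e-04). GADD45A, a growth arrest gene, and LGR5, a receptor that boosts Wnt signals, also fell and then rose, with differences of 2.27 ± 0.47 and 2.29 ± 0.53. Of 31 immediate early genes 2 had a larger later change, MYC and GADD45A, and 2 a smaller one, against 2.15 and 3.75% of all tested genes. The latter, KLF2 and ZFP36L1, were early rises, with differences of -2.16 ± 0.44 and -1.02 ± 0.26. Leaving out 1 library ended the calls of LGR5 (GD124 replicates 2 and 3, adjusted p 0.052 to 0.0647) and ZFP36L1 (GD100 replicates 2 and 3, GD124 replicates 1 to 4 and GD144 replicate 4, adjusted p 0.0518 to 0.0814). Without GD100 replicates 2 to 4, GADD45A (adjusted p = 0.0524), LGR5 (adjusted p = 0.0568), KLF2 (adjusted p = 0.099) and ZFP36L1 (adjusted p = 0.0519) missed the threshold. A call was also lost with scaling by total counts alone for ZFP36L1 (adjusted p = 0.0843), and with no filter on low counts for ZFP36L1 (adjusted p = 0.0503).

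Many genes of glucose output rose in each interval, but not all in step. Of 20 genes 11 rose in the earlier and 15 in the later interval, against 16.6 and 12.1% of all tested genes. A larger later change was called for 2 and a smaller one for 2, against 2.15 and 3.75%. SLC37A4 carries glucose-6-phosphate to the enzyme that releases glucose. SLC37A4 stood at 33.1, 15.1, 21.6 and 18.1 CPM at GD100, at 32.6, 34.3, 41.8, 48.1 and 33 CPM at GD124, and at 222 to 438 CPM with a median of 321 CPM at GD144. It rose slightly and then steeply, with changes of log2 0.79 ± 0.24 in the earlier and 3.05 ± 0.23 in the later interval, a difference of 2.27 ± 0.40 (SE, edgeR adjusted p = 0.00715). G6PC1, the catalytic subunit of that enzyme, showed the reverse order. G6PC1 stood at 2.59, 0.873, 5.06 and 4.89 CPM at GD100, at 68.9, 58.3, 73.4, 199.8 and 127 CPM at GD124, and at 402 to 781 CPM with a median of 590.2 CPM at GD144. No library overlapped another stage, and the larger step came first, with changes of log2 4.98 ± 0.53 in the earlier and 2.45 ± 0.42 in the later interval, a difference of -2.53 ± 0.69 (SE, edgeR adjusted p = 0.0441). AQP9, a glycerol channel, was at 9.78 ± 2.79, 83.3 ± 41.4 and 145 ± 23.7 CPM and also slowed (difference -2.29 ± 0.47, adjusted p = 0.0126). PCK1, the cytosolic counterpart of PCK2, rose by 3.95 ± 0.65 and 2.21 ± 0.52, and the difference of -1.74 ± 0.89 did not pass (adjusted p = 0.258). The call of G6PC1 was narrow. It also ended when changes were compared per day. The call of G6PC1 (GD100 replicates 1 to 3, GD124 replicates 1 to 5 and GD144 replicates 1, 2, 4, 5 and 6, adjusted p 0.0513 to 0.147) ended with 1 of these libraries left out. Leaving out GD100 replicates 2 to 4 together ended the call of G6PC1 (adjusted p = 0.0702). The call also ended with scaling by total counts alone for G6PC1 (adjusted p = 0.0515), and with no filter on low counts for G6PC1 (adjusted p = 0.0695).

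The further rises that became faster were SLC25A4, NEK10, TP53INP1 and CES3. SLC25A4, the mitochondrial exchanger of ADP and ATP known from muscle, was at 7.71 ± 2.54, 14.8 ± 2.67 and 187 ± 84.9 CPM (difference 2.72 ± 0.58, adjusted p = 0.015). TP53INP1, a stress protein, was at 22.3 ± 3.77, 47.3 ± 13.1 and 303 ± 69 CPM (1.59 ± 0.37, adjusted p = 0.0219), CES3, a carboxylesterase, at 23.8 ± 5.41, 48.2 ± 12.3 and 256 ± 29.5 CPM (1.40 ± 0.31, adjusted p = 0.018), and the kinase gene NEK10 at 0.509 ± 0.141, 1.36 ± 0.249 and 15 ± 3.28 CPM (2.04 ± 0.39, adjusted p = 0.00976). CES3 was the 1 called member of 24 genes of drug and steroid metabolism (4.17%, against 5.9% of all tested genes). CYP2E1, a cytochrome of ethanol and ketone metabolism, was at 2.72 ± 1.2, 2.69 ± 2.2 and 50.6 ± 42.3 CPM, and its difference of 4.24 ± 1.19 just missed the threshold (adjusted p = 0.0517). It passed with total counts alone (adjusted p = 0.0353), with DESeq2 (adjusted p = 0.00337) and without GD100 replicate 4, GD124 replicate 4, GD144 replicate 1 or GD144 replicate 3 (adjusted p 0.0261 to 0.0488). Slowing rises of the naming rule beside G6PC1 were GPRC5A, TCTN1 and ALDH6A1, with differences of -1.57 ± 0.41, -1.20 ± 0.27 and -0.90 ± 0.26. ALDH6A1 works in valine breakdown and TCTN1 at the base of cilia. FBXO42, which selects proteins for ubiquitin, was the 1 slowing fall (68.5 ± 15.7, 27.5 ± 3.45 and 21.4 ± 1.4 CPM, difference 0.96 ± 0.24). Fits without 1 library ended the calls of TP53INP1 (GD124 replicates 2 and 3, adjusted p 0.0546 to 0.0704), CES3 (GD124 replicates 2 and 4, adjusted p 0.0555 to 0.0573), GPRC5A (GD100 replicate 2, GD124 replicates 1 to 4 and GD144 replicates 1, 4 and 5, adjusted p 0.0518 to 0.0834), TCTN1 (GD124 replicates 1 and 2, adjusted p 0.0548 to 0.0559), ALDH6A1 (GD100 replicates 1 to 3, GD124 replicates 1 to 5 and GD144 replicates 1 to 6, adjusted p 0.0573 to 0.129) and FBXO42 (GD100 replicate 3 and GD124 replicates 1 to 4, adjusted p 0.0504 to 0.0871). No call was left without GD100 replicates 2 to 4 for SLC25A4 (adjusted p = 0.142), NEK10 (adjusted p = 0.102), TCTN1 (adjusted p = 0.11) and FBXO42 (adjusted p = 0.0895). Another processing ended the call, namely with scaling by total counts alone for TCTN1 (adjusted p = 0.0611) and ALDH6A1 (adjusted p = 0.118), and with RLE scaling for ALDH6A1 (adjusted p = 0.0556), and with no filter on low counts for ALDH6A1 (adjusted p = 0.0923).

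Most erythroid, mitosis and DNA replication genes fell in both intervals, and whether members of these lists were called as falling faster in the later one rested on 1 library. In the earlier interval 18 of 32 erythroid, 39 of 57 mitosis and 35 of 45 DNA replication genes fell, in the later one 31, 56 and 43, and 0 rose, while of all tested genes 17.4% fell earlier and 15.4% later. Of these genes 0 were called for the difference by edgeR. At an unadjusted p under 0.05 the numbers with a smaller later change were 1, 20 and 9, and DESeq2 called 0, 1 and 0. The median changes of the erythroid list were -1.64 and -3.24, and those of the mitosis list -1.37 and -2.94. Summed erythroid transcripts were 8333 to 20481 CPM at GD100, 3367 to 6707 CPM at GD124, 1764 CPM in GD144 replicate 3 and 402 to 499 CPM in the other GD144 libraries. For mitosis the same library held 739 CPM against 169.5 to 252 CPM. Without GD144 replicate 3, 19 erythroid, 41 mitosis and 13 replication genes had a smaller later change and 0 a larger one, all as faster falls, whose number over all genes went from 19 to 257. The median later change of the erythroid list was then -4.32. STMN1 (stathmin, which destabilises microtubules) and DTL, which helps to control replication, stand in none of these lists and were chosen after their values were seen. Both were faster falls with all libraries, STMN1 at 113 ± 17.3, 75 ± 13.1 and 17.6 ± 3.37 CPM (adjusted p of the difference 0.00722) and DTL at 17.4 ± 5.08, 10.3 ± 2 and 2.05 ± 0.506 CPM (difference -1.55 ± 0.36, adjusted p = 0.0215). In the fit with all libraries MKI67, the proliferation marker, was at 784 ± 299, 288 ± 101 and 29.3 ± 43.8 CPM (difference -1.85 ± 1.18, adjusted p = 0.365) and ALAS2, which opens haem synthesis in red cells, at 1119.5 ± 696, 295 ± 101 and 28.6 ± 47 CPM (difference -1.44 ± 1.43, adjusted p = 0.585). KLF1 and EPOR, a factor and a receptor of red cell formation, had differences of -1.75 ± 1.42 and -1.43 ± 0.83 (adjusted p = 0.49 and 0.32). Without GD144 replicate 3 the differences of MKI67, ALAS2, KLF1 and EPOR passed, at -3.20, -3.04, -3.64 and -2.15 (adjusted p = 0.00279, 0.0326, 0.00692 and 0.031). MCM2, of replication licensing, and CD34, of blood progenitors and endothelium, had differences of -0.57 ± 0.42 and -0.09 ± 0.46, with 95% intervals of -1.45 to 0.31 and -1.06 to 0.88. Each library named here, when left out, ended the call of DTL (GD124 replicates 1, 2 and 5, adjusted p 0.0564 to 0.0632). Changed processing ended it with scaling by total counts alone for DTL (adjusted p = 0.0565).

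**Figure D4:**
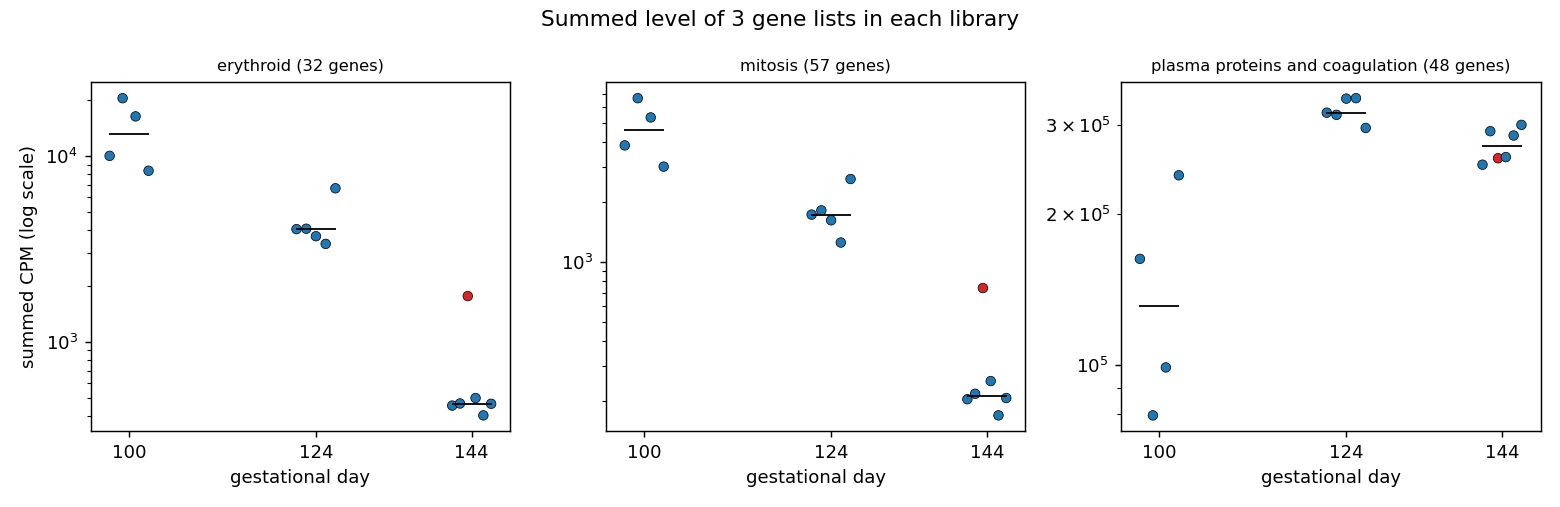
Summed CPM of the erythroid, mitosis and plasma protein lists in each library (points, log axis) by gestational day, with stage medians as bars and GD144 replicate 3 in red. The red point stands above the other GD144 libraries for erythroid (1764 CPM) and mitosis genes (739 CPM) and among them for plasma proteins.

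Genes of the other cells of the liver and the remaining lists gave few calls. Of all tested genes 2.15% had a larger and 3.75% a smaller later change. Of 17 megakaryocyte and platelet genes GP1BA was a late rise (37.4 ± 12.5, 36.4 ± 11.1 and 144 ± 29.1 CPM, difference 2.02 ± 0.42, adjusted p = 0.0131) and VWF, which endothelium also makes, fell and then rose (28.1 ± 3.71, 16.3 ± 4.64 and 36.7 ± 12.2 CPM, difference 1.95 ± 0.42, adjusted p = 0.0154). The list as a whole had negative medians in both intervals, -1.46 and -1.01, and these members went against them later. The median difference of the list was 0.04, and -1.05 without GD144 replicate 3. Of 26 endothelial genes ENG (endoglin) fell and then rose (difference 1.10 ± 0.27, adjusted p = 0.0276), and the list medians were 0.19 and 0.85. Summed endothelial transcripts were 439 to 664, 493 to 803 and 796 to 1109.6 CPM at the 3 stages, and those of stellate cells, pericytes and matrix 2545 to 3499, 4156 to 5514 and 5497 to 7748 CPM. Kupffer cell and macrophage transcripts, with CD163 not among the genes tested, summed to 487 to 1080.1, 1088 to 1527 and 1085 to 1623 CPM. Among the defining markers tested, GP9, a platelet gene, was at 0 in at least 1 GD144 library and at most at 1.17 CPM there. The part of these cells in the results above was not tested. In further lists 1 gene each was called, PFKP among 28 genes of glycolysis (difference 1.56 ± 0.41) and NDUFV1 among 44 of the respiratory chain (difference 0.94 ± 0.26). CREB3L2 stood beside SEL1L among 29 genes of protein folding (difference -1.11 ± 0.21). The called shares of these lists were 3.57, 2.27 and 6.9% in this order, near or below the 5.9% of all tested genes. For stellate, stem and progenitor, antigen presentation, interferon, bile duct, cholesterol synthesis, antioxidant and cytosolic ribosomal protein genes 0 members were called by edgeR. Their numbers with a larger and a smaller later change at an unadjusted p under 0.05 were 5 and 0, 0 and 1, 1 and 1, 5 and 1, 0 and 1, 1 and 6, 2 and 4 and 8 and 2. In the same order DESeq2 called 2 and 0, 0 and 1, 1 and 1, 3 and 1, 0 and 0, 1 and 2, 0 and 0, 4 and 0. Leaving out 1 library ended the calls of VWF (GD124 replicate 2, adjusted p 0.0507), ENG (GD124 replicates 1 to 4, adjusted p 0.0523 to 0.0769), PFKP (GD100 replicates 2 and 3 and GD124 replicates 1, 2, 4 and 5, adjusted p 0.0533 to 0.093) and NDUFV1 (GD100 replicates 2 and 3, GD124 replicates 1 to 5 and GD144 replicates 4 to 6, adjusted p 0.0526 to 0.137). GD100 replicate 1 taken alone for its stage left no call for GP1BA (adjusted p = 0.0828), PFKP (adjusted p = 0.063) and NDUFV1 (adjusted p = 0.157). A call was also lost with no filter on low counts for NDUFV1 (adjusted p = 0.0544).

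**Figure D5:**
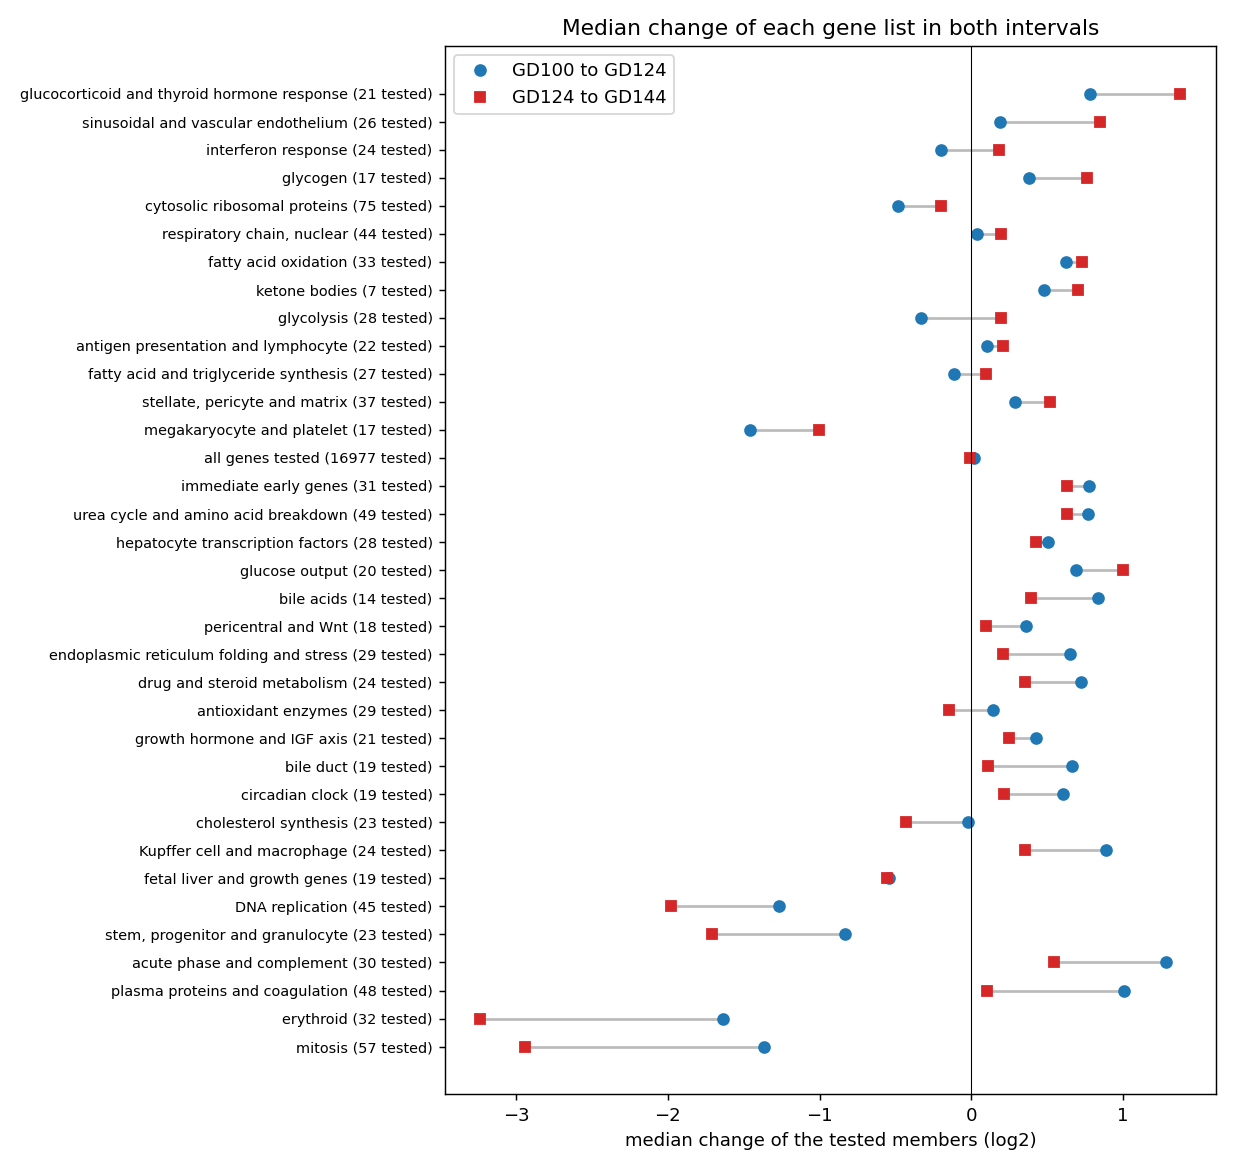
Median log2 change of the tested members of each gene list from GD100 to GD124 (circles) and from GD124 to GD144 (squares), ordered by the median of the members' differences, with all tested genes as 1 row. Erythroid and mitosis genes have the largest gaps, with squares at -3.24 and -2.94, plasma proteins drop from 1.01 to 0.10, and hormone response genes go from 0.78 to 1.38.

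The earlier interval lasted 24 days and the later one 20, so each change was also divided by its days. Compared per day, 354 genes (2.09%) had a larger and 613 (3.61%) a smaller later change. Of these 967 genes (5.7%) 871 were also called without division, all in the same direction, 96 were called per day alone and 131 without division alone. ZBTB16 changed by 0.00291 and 0.209 log2 units per day in the earlier and the later interval, and FGG by 0.0777 and -0.00316. AFP changed by -0.0847 and -0.375 per day and FETUB by 0.0352 and -0.0973. G6PC1 gave 0.207 and 0.123, and its difference per day did not pass (adjusted p = 0.123). Likewise the per-day differences of GPRC5A, ALDH6A1, C6, ONECUT2, ADGRG1, ANKRD9, FBXO42 and CIDEB did not pass, at adjusted p of 0.0513 to 0.105. CYP2E1 (-4.54e-04 and 0.211 per day, adjusted p = 0.0383) and SLC2A1, a glucose transporter abundant in red cells (-0.0825 and -0.165 per day, adjusted p = 0.0168), passed per day alone, as did PPP1R3C of glycogen storage, ACOX2 of bile acid synthesis and SREBF2 of cholesterol synthesis, at adjusted p of 0.0365, 0.0404 and 0.047.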

How the data were processed

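Poly(A) RNA of fetal sheep liver was sequenced as paired-end libraries, per the labels' protocols. The authors deposited estimated counts of reads per gene, not normalised, and DRAGEN is named in the submitters' processing notes. Its version, the build, annotation and strand setting are not stated in the labels or notes at hand. Values, 6.55% of them fractional, were rounded. A single fit of 15 libraries was made with edgeR 4.0.16 in R 4.3.3 (TMM, filterByExpr, robust quasi-likelihood F-test, a term per stage). The code was tried on simulated counts with a common spread for all genes and changes in the later interval only. That simulation held no libraries that stood apart, so it does not show how the fit does with those found here. The contrast was (GD144 - GD124) - (GD124 - GD100) on the log2 scale, with Benjamini-Hochberg adjustment over 16977 genes and a threshold of 0.05. Standard errors are the log2 value divided by the square root of F. Alternatives were RLE or total count scaling, no filter, DESeq2 1.42.0, an adjusted p under 0.01, a replicate block, GD100 without its replicates 2 to 4, and each library left out. The comparison, its 34 gene lists and the naming rule were chosen with earlier results of these data known. The rule names, per course, the 4 largest differences among called genes with a symbol, at least 10 CPM in the highest stage, no overlap of libraries in a called interval and, for early and late courses, a 95% interval of the other change within 2-fold, leaving out genes set apart in GD100 replicates 2 to 4. The interval condition is dropped for a course with fewer than 4 such genes. It adds fixed genes such as ALB and PCK1, and up to 5 called members of each list described, or its most abundant members where fewer than 2 are called. GRB10, LGR5, FGB, FGA, GC, KNG1, ITIH2, PFKP and NDUFV1 were added from the lists after their values were seen. A few genes picked by this rule are left out of the text. Depth of 24215612 to 38247295 counts puts 3 counts at 0.0784 to 0.124 CPM, counting error only. Gene overlaps come from RefSeq on ARS-UI_Ramb_v3.0, and no other coordinate was used.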

Additional observations from a re-analysis of the deposited data

Results flagged for a closer look

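The changes of both intervals differed for 1002 genes by the test of the difference itself, which is the comparison described above. A single library lay far from the others of its stage for 15 of the 177 gene and stage groups tested, over 59 genes, where chance alone flags about 1 in 20 groups. Of the 15, 4 were GD144 replicate 3, in the erythroid and cell cycle genes MKI67 (118 CPM), KLF1 (21.5 CPM), ALAS2 (124 CPM) and EPOR (3.74 CPM). GD124 replicate 5 was high for EPOR (26.4 CPM) and CD34 (64.7 CPM). GD100 replicate 4 was high for CDH16 (249 CPM) and ALDH6A1 (227 CPM). GD124 replicate 1 was high for MYC (17.8 CPM) and CES3 (70.0 CPM), and GD144 replicate 2 was low for MYC (19.5 CPM). GD144 replicate 1 was high for FOXA2 (6.25 CPM) and low for ALB (46350.0 CPM). GD144 replicate 4 was high for CPT1A (285 CPM) and GD144 replicate 6 for CYP2E1 (134 CPM).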

How the results depend on the processing

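Counts of genes that moved by over 1.5 times were these, and the cause was not tested. DESeq2 in place of edgeR gave 881 larger later changes, 880 larger later changes per day, 949 smaller later changes per day, 281 late rises, 399 early rises, 403 early falls, 167 falls then rises, 25 faster rises, 44 faster falls, 17 slowing rises and 5 slowing falls. GD100 replicate 1 alone for its stage, assumed to vary like the other libraries, gave 85 late falls, 98 rises then falls, 1 faster rises, 5 faster falls, 33 slowing rises and 3 slowing falls. An adjusted p under 0.01 left 36 larger later changes, 122 smaller later changes, 55 larger later changes per day, 145 smaller later changes per day, 16 late rises, 35 late falls, 42 early rises, 11 early falls, 40 rises then falls, 8 falls then rises, 1 faster rises, 5 faster falls, 0 slowing rises and 0 slowing falls. No filter beyond a count above 0 gave 5 slowing rises and 0 slowing falls. A replicate block, which takes the replicate numbers as pairs, left 99 larger later changes, 226 smaller later changes, 113 larger later changes per day, 225 smaller later changes per day, 34 late rises, 45 late falls, 77 early rises, 28 early falls, 91 rises then falls, 32 falls then rises, 5 faster rises, 9 faster falls, 4 slowing rises and 0 slowing falls. Scaling by total counts alone gave 789 larger later changes, 388 smaller later changes, 782 larger later changes per day, 391 smaller later changes per day, 219 late rises, 115 early rises, 338 early falls, 110 rises then falls, 215 falls then rises, 6 slowing rises and 2 slowing falls. With 1 library left out the counts ran from 99 to 708 for larger later changes, from 280 to 1035 for smaller later changes, from 126 to 628 for larger later changes per day, from 297 to 977 for smaller later changes per day, from 38 to 192 for late rises, from 74 to 221 for late falls, from 85 to 554 for early rises, from 23 to 348 for early falls, from 97 to 232 for rises then falls, from 35 to 137 for falls then rises, from 3 to 14 for faster rises, from 12 to 257 for faster falls, from 1 to 43 for slowing rises and from 0 to 18 for slowing falls. The replicate block also ended calls of many genes named here, which the lists of lost calls leave out. FST, SLC40A1, KNG1 and CREB3L2 lost theirs in this fit alone (edgeR adjusted p 0.0554 to 0.0628). Replicate numbers share nothing the labels name, and same-numbered libraries correlated at -0.155 to 0.144 in their deviations from the stage means, so the pairing is by number alone. RLE scaling, in which percent of larger changes was 43.5 against 36.4, moved no count by over 1.5 times, though it ended the calls of ALDH6A1 and ONECUT2. No sign of a called gene named here turned under the alternatives run, while SPARC, not called with all libraries, had a difference of -1.46 (adjusted p = 0.0288) without GD100 replicates 2 to 4, against 0.06. The spread at GD100 and the shared GD124 libraries limit what can be seen, since the difference carries the error of all 3 stages. A planned description of promoter motifs was not run.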

Other observations

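Part of the genes of ribosome assembly in the nucleolus fell and then rose. The list was written after the genes that fell and then rose had been seen, so its counts are a description and no test. Of 100 tested members 23 had a larger and 0 a smaller later change, against 2.15 and 3.75% of all genes. They comprised 14 that fell and then rose, 7 early falls and 2 late rises. The median changes were -0.38 and 0.30. NOP14, of the small subunit processome, was at 30.7 ± 7.36, 14 ± 1.63 and 20.1 ± 4.58 CPM (difference 1.66 ± 0.32, adjusted p = 0.00984), PPAN, of large subunit assembly, at 17.6 ± 3.03, 8.61 ± 1.88 and 16.1 ± 4.94 CPM (1.93 ± 0.37, adjusted p = 0.00982), and BOP1, of ribosomal RNA processing, at 23.3 ± 4.91, 11.9 ± 1.71 and 18 ± 3.44 CPM (1.56 ± 0.30, adjusted p = 0.00949). PPAN and BOP1 overlap another gene in the annotation. MYC had the same course. The numbers were 15 and 0 without GD100 replicates 2 to 4 and 40 and 0 with total counts alone. Summed levels were 2614 to 3436 CPM at GD100, 2249 to 2468 CPM at GD124 and 2332 to 3642 CPM at GD144. The genes of the ribosomal proteins themselves gave 0 calls for the difference by edgeR, 8 and 2 at an unadjusted p under 0.05, and 4 and 0 by DESeq2.

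Further genes were picked after their values were seen. ABCG5 and ABCG8 together form the transporter that secretes cholesterol into bile, and both rose in the later interval. ABCG5 was at 12.1 ± 6.47, 8.37 ± 3.06 and 31 ± 9.39 CPM (difference 2.42 ± 0.65, edgeR adjusted p = 0.0398) and ABCG8 at 13.1 ± 1.69, 20.2 ± 6.68 and 88.1 ± 18.4 CPM (adjusted p of the difference 0.035). XDH, which forms uric acid, was at 1.88 ± 0.592, 3.78 ± 0.605 and 120.5 ± 105 CPM (difference 3.98 ± 1.05, adjusted p = 0.0405). FST (follistatin, an activin inhibitor) was a late fall by its calls, at 24.6 ± 19.4, 63.7 ± 19.7 and 8.86 ± 5.27 CPM (difference -4.22 ± 0.79, adjusted p = 0.0105). CUBN, an uptake receptor, was another, at 8.59 ± 6.06, 24.2 ± 11.4 and 3.06 ± 2.02 CPM (difference -4.48 ± 0.91, adjusted p = 0.0144). The earlier rises of FST (1.37 ± 0.51, edgeR adjusted p = 0.0529) and CUBN (1.496 ± 0.592, adjusted p = 0.0645) narrowly missed the call. Their later changes were -2.85 ± 0.47 and -2.98 ± 0.54, so the earlier rises are part of both differences. NFKBIA, an inhibitor of NF-kappaB, rose faster later, at 6.18 ± 1.41, 9.97 ± 2.19 and 50.4 ± 13.2 CPM (difference 1.64 ± 0.39, adjusted p = 0.0231). ABCG5 and ABCG8 overlap another gene in the annotation. The calls of ABCG5 (GD100 replicate 1, GD124 replicates 1 to 5 and GD144 replicates 5 and 6, adjusted p 0.0557 to 0.0928), ABCG8 (GD100 replicate 3, GD124 replicates 2 to 5 and GD144 replicates 5 and 6, adjusted p 0.0503 to 0.0798), XDH (GD100 replicates 1 to 3, GD124 replicates 1 to 5 and GD144 replicates 5 and 6, adjusted p 0.0505 to 0.0909) and NFKBIA (GD124 replicates 2, 4 and 5, adjusted p 0.0561 to 0.0671) ended with 1 of these libraries left out. Without GD100 replicates 2 to 4, ABCG8 (adjusted p = 0.123), XDH (adjusted p = 0.138), CUBN (adjusted p = 0.0717) and NFKBIA (adjusted p = 0.129) missed the threshold. The call also ended with no filter on low counts for ABCG5 (adjusted p = 0.0582) and XDH (adjusted p = 0.0661).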
